A study of Mus musculus with 6 samples.

Results

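FOXO3 was expressed from a retrovirus in mouse bone marrow cells labelled MLL4-/- and transformed with MLL-AF9, and the RNA of these cells was compared with that of sister cells given an empty vector. The comparison covers 2 FOXO3 libraries and 1 empty-vector library, and takes in the 13988 genes, of 23282 in the count tables, with at least 10 counts in at least 1 of these 3 libraries. The control side holds 1 library, so no spread could be measured there. Marrow of both groups came from mice of a mixed 129/Sv and C57BL/6 background and was labelled MLL4-/-. Both groups also carried MLL-AF9 on a retrovirus with a neomycin marker, were selected in G418 for a week, were sorted for GFP and had a growth duration of 14 days. The FOXO3 group received FOXO3-IRES-GFP, from which GFP is made off the same transcript, and the control group received the vector without FOXO3, labelled EV. The rest of the series has 4 MLL-AF9 libraries, 2 labelled Mll4 deleted and 2 intact, which served here to estimate the spread between libraries, and 2 libraries of LSK stem and progenitor cells, which were not used.

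MLL4, encoded by Kmt2d, is a histone methyltransferase that acts mainly at enhancers, and MLL-AF9 is a leukaemia fusion protein that keeps myeloid progenitors growing by holding genes of the Hoxa cluster active. FOXO3 is a forkhead transcription factor that is kept out of the nucleus when growth factors activate the kinase AKT. In the nucleus it is known to activate genes for cell cycle arrest, resistance to oxidants, autophagy and cell death, and FOXO factors are needed to maintain blood stem cells. The design asks which genes of Mll4-null MLL-AF9 cells respond to added FOXO3.

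Total counts were 37083939 and 44883561 in the FOXO3 libraries, 52518578 in the empty-vector library and 31713351 to 61950773 in the 4 others. The FOXO3 libraries are 2 count tables of 1 deposited sample, and nothing states that they came from separate cultures. They were nearly alike: the chi-square statistic per degree of freedom was 1.97 between them, against 191 and 146 within the pairs labelled Mll4 deleted and intact, and 204 and 234 between each FOXO3 library and the empty vector. Every gene was therefore tested first with the pair as 2 libraries and then with the pair summed into 1, and a summed adjusted p below is that of the second test. The spread behind the p-values of the first test comes from the FOXO3 pair and from the pairs labelled Mll4 deleted and intact. It may be technical in the FOXO3 pair. Within each of the 2 other pairs the libraries differed in sex, as given below, so their spread is not technical alone. In the second test the spread comes from those 4 other libraries alone. All 3 compared libraries expressed Ddx3y of the Y chromosome, at 92.2 to 99.3 CPM (counts scaled to the library total), so they matched in sex, whereas each of the 2 other pairs held 1 library with Ddx3y at 41.3 or 52.0 CPM and 1 with less than 1 CPM. The cells had the markers of immature myeloid cells in every compared library, with Mpo at 8257, 8316 and 6773 CPM, and the labelled Mll4 deletion could not be checked from counts over the whole gene. Kmt2d stood at 102 and 115 CPM with FOXO3 and 116 CPM with the empty vector, above the 61.7 to 95.6 CPM of the 4 other MLL-AF9 libraries, 2 of which are labelled intact (log2 fold change, FOXO3 minus empty vector, -0.13 ± 0.19 SE, adjusted p = 0.749; every adjusted p here is from the quasi-likelihood test of edgeR, after Benjamini and Hochberg, over all tested genes).

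With the pair as 2 libraries, 364 genes were higher and 771 lower with FOXO3 than with the empty vector at an adjusted p under 0.05, which is 2.6% and 5.51% of the genes tested and 8.11% together. With the pair summed, 197 genes passed, 37 higher and 160 lower (0.265% and 1.14%, or 1.41% together), and all 197 were among the 1135 of the first test. In both tests more genes were lower than higher. Over all tested genes, 3420 had an unadjusted p under 0.05, and the program DESeq2 called 842 higher and 1373 lower. Such counts in the lists below are read beside these. The median log2 fold change over all tested genes was -0.03, and fold changes below are read against it. Among the 1135, 52 met the count minimum only through the FOXO3 libraries and 204 only through the empty-vector library, and these had to differ in that direction. The lists below also held genes, called or not, that met it through 1 side only. They were 9 of 49 monocyte and macrophage genes, 8 of 25 chemokine and cytokine genes and 8 of 16 MHC class II and dendritic cell genes. Among the others were 5 of 15 erythroid markers, 5 of 24 mast cell, basophil and eosinophil markers and 4 of 29 immediate early genes. The count minimum thus partly set the counts and medians of these lists. In bulk RNA, fewer cells of a type and less RNA per cell cannot be told apart.

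**Figure D1:**
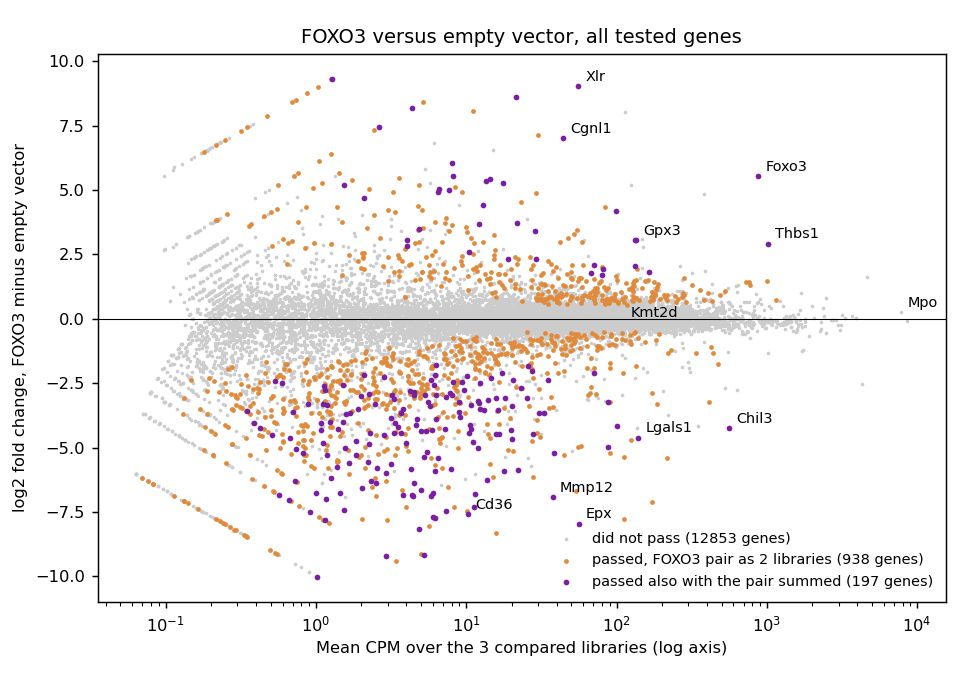
Each point is 1 of the 13988 tested genes, with its mean CPM over the 3 compared libraries on a log axis and its log2 fold change, FOXO3 minus empty vector, on the other axis. Purple marks the 197 genes that passed with the FOXO3 pair summed as well, orange the 938 that passed with the pair as 2 libraries only; lower genes outnumber higher ones in both.

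The transgene was visible in the counts. Foxo3 stood at 1292 and 1309 CPM in the FOXO3 libraries and at 27.3 CPM with the empty vector, where the 4 other MLL-AF9 libraries ranged from 27.2 to 37.7 CPM. Both FOXO3 libraries thus lay far above the 5 libraries without the transgene, by 47.7-fold over the empty vector (log2 fold change 5.54 ± 0.22 SE, adjusted p = 0.000805, and 0.0203 with the pair summed). The labels do not give the species of the FOXO3 sequence, and reads from the endogenous gene and from the virus cannot be told apart. Of the 39 tested genes of the FOXO family and of the pathway that controls it, Foxo3 was higher and 2 were lower with FOXO3, against 8.11% of all genes called. Sgk1, a kinase that phosphorylates FOXO factors, fell from 23.9 CPM to 6.18 and 6.22 CPM, and Trib1, a pseudokinase that promotes degradation of C/EBPα, fell from 3.85 CPM to 0.728 and 0.446 CPM. Neither passed with the pair summed (adjusted p = 0.119 and 0.0859). The 4 other libraries held 66.4 to 429 CPM of Sgk1 and 16.0 to 44.0 CPM of Trib1, above the empty vector for both. Ywhaz and Ywhag, members of the 14-3-3 family that binds phosphorylated FOXO, did not pass, with log2 fold changes of -0.18 ± 0.30 SE and -0.27 ± 0.14 SE.

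Genes described elsewhere as FOXO targets did not rise as a group. Of 45 tested members none was called higher by edgeR and 3 were called lower, with a median log2 fold change of -0.07 beside -0.03 over all genes. At an unadjusted p under 0.05, 3 members were higher and 12 lower, and DESeq2 called 3 higher and 6 lower. Il7r, the interleukin 7 receptor chain, stood at 0.189 and 0.245 CPM with FOXO3 and at 6.30 CPM with the empty vector, which itself was below the 71.5 to 356 CPM of the 4 other libraries (log2 fold change -4.86 ± 0.28 SE, adjusted p = 0.00195, and 0.0237 with the pair summed). Cdkn1a, which encodes the cell cycle inhibitor p21, stood at 51.5 and 49.9 CPM with FOXO3 and 85.3 CPM with the empty vector. It fell by 0.78 ± 0.13 SE on the log2 scale (adjusted p = 0.0222), and did not pass with the pair summed (adjusted p = 0.243). The 4 other libraries held 507 to 695 CPM of Cdkn1a, above the empty vector as well. The third was Trib1. The abundant members Ddb1 and Prdx5, for DNA damage recognition and a peroxiredoxin, gave log2 fold changes of -0.21 ± 0.13 SE and -0.45 ± 0.15 SE and did not pass. Other textbook targets, chosen after their values were seen, also did not pass: the log2 fold change was 0.00 ± 0.18 SE for Bcl2l11, the death gene Bim, 0.18 ± 0.15 SE for catalase (Cat), -0.41 ± 0.24 SE for the manganese superoxide dismutase Sod2, 0.30 ± 0.32 SE for the ubiquitin ligase gene Fbxo32 and -1.63 ± 0.51 SE for Bcl6.

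The genes with the largest rises, taken among those that passed both tests and averaged 10 CPM or more, were of mixed function. Cgnl1, which encodes a junction protein, stood at 65.8 and 66.0 CPM with FOXO3 and 0.495 CPM with the empty vector (log2 fold change 7.01 ± 0.25 SE, adjusted p = 0.000805, and 0.0203 with the pair summed). The 4 other libraries ranged from 7.99 to 16.9 CPM, so the FOXO3 pair lay above and the empty vector below all of them. Xlr, a gene of an X-linked lymphocyte family with near-identical copies whose reads may be shared, stood at 83.5 and 82.5 CPM against 0.152 CPM, or 8 counts. Myo7a, an unconventional myosin, stood at 141 and 147 CPM against 7.65 CPM, and at 37.7 to 61.2 CPM in the others. Thbs1, which encodes the secreted matrix protein thrombospondin, stood at 1424 and 1456 CPM against 186 CPM (log2 fold change 2.92 ± 0.28 SE, adjusted p = 0.00607, and 0.0443 with the pair summed). Its level was higher still in the 4 other libraries, 2515 to 3973 CPM, so for Thbs1 the empty-vector library was the lowest of the 7. The further members were B3galt1, Cttn, Smpdl3a, St8sia5, Rtl6, Mansc1, Thbd, Nid2, Gpx3 and F5, with log2 fold changes between 3.05 for F5 and 8.63 for B3galt1, which rested on 4 empty-vector counts. Thbd and F5 encode the coagulation proteins thrombomodulin and factor V, Nid2 a basement membrane protein, and Cttn the actin regulator cortactin.

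The largest falls included several genes of mature myeloid cells. Epx, the peroxidase of eosinophil granules, stood at 0.728 and 0.646 CPM with FOXO3 and 167 CPM with the empty vector (log2 fold change -7.96 ± 0.23 SE, adjusted p = 0.000805, and 0.0203 with the pair summed). The 4 other libraries held 285 to 475 CPM, so both FOXO3 libraries lay far below every other MLL-AF9 library. Cd36, a scavenger receptor for lipids, stood at 0.135 and 0.178 CPM against 30.3 CPM, and Mmp12, the elastase of macrophages, at 1.19 and 0.691 CPM against 111 CPM. In the 4 others these genes were at 139 to 447 CPM and 1224 to 8757 CPM, so the empty-vector library was already well below them. Lgals1, a secreted lectin, stood at 15.6 and 16.6 CPM against 386 CPM (log2 fold change -4.62 ± 0.19 SE, adjusted p = 0.000805, and 0.0237 with the pair summed), and Anxa1, a phospholipid-binding protein of phagocytes, at 8.06 and 8.13 CPM against 247 CPM. Mrc1, the macrophage mannose receptor, Cdh1, E-cadherin, and Cd48, a surface receptor of blood cells, gave log2 fold changes of -4.48 ± 0.36 SE, -5.90 ± 0.30 SE and -4.66 ± 0.36 SE.

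For another set of the falls the empty-vector library stood above all 6 others. Fgf3, a growth factor gene, was at 33.6 CPM with the empty vector, at 0.297 and 0.312 CPM with FOXO3, and at 0.536 to 1.55 CPM in the 4 others. Mtmr7, Bahcc1, Zfpm1 (the GATA cofactor FOG1) and Car2 had the same order, with Car2, a carbonic anhydrase, at 110 CPM in the empty-vector library, 3.05 and 2.92 CPM with FOXO3 and 7.98 to 19.5 CPM in the others. The last member, B3gnt7, fell from 30.9 CPM to 1.38 and 0.936 CPM, and the empty-vector value lay within the 26.9 to 37.6 CPM of the others.

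**Figure D2:**
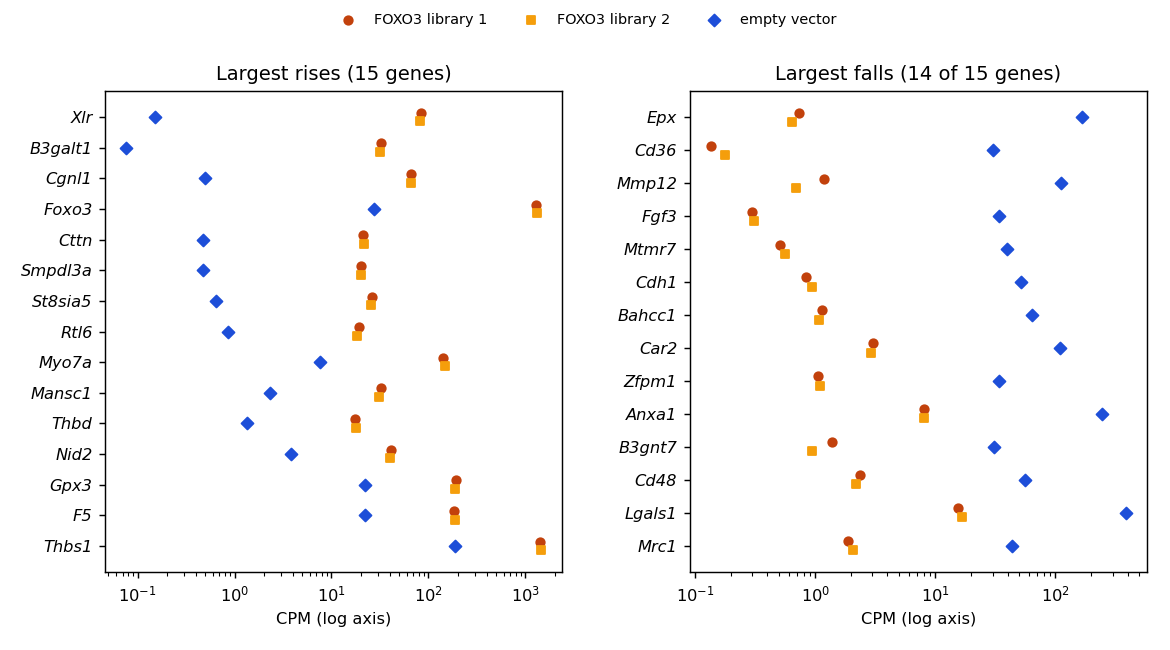
CPM on a log axis of the 15 genes with the largest rises and 14 of the 15 with the largest falls among genes that passed both tests, with 1 symbol per library. In every row the 2 FOXO3 libraries lie close together and on the same side of the empty-vector library.

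Over all called genes the place of the FOXO3 pair and of the empty vector among the MLL-AF9 libraries varied. Of the 771 lower genes, the FOXO3 pair lay outside the range of the 4 other libraries with the empty vector inside it for 160, the empty vector lay outside with the pair inside for 89, and both lay outside for 499. Of the 364 higher genes the counts were 87, 51 and 216. Thus for most called genes the FOXO3 pair and the empty vector both lay outside the range of the others, in the same or in opposite directions. The remaining genes had both inside the range or the pair on either side of its edge. These positions were not counted over all tested genes, so they cannot be read as particular to called genes. Besides erythroid markers, the called genes with the empty vector alone outside included Tlr4, Igfbp4, Sesn2, Itgb5, Pfkl, Tcf7, Dnmt3b, Col1a1, Hspe1, Cttn, Ifngr1, Pparg and Glrx5.

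Few genes of cell division were called. None of 40 DNA replication genes and none of 36 mitosis genes was called by edgeR, with medians of -0.07 and 0.05, and at an unadjusted p under 0.05 there were 1 and 2 higher members and no lower one. DESeq2 called 1 higher member in each. The replication genes Mcm6, a subunit of the helicase, and Rrm1, of ribonucleotide reductase, gave log2 fold changes of 0.67 ± 0.18 SE and 0.01 ± 0.28 SE. Mki67, the proliferation antigen Ki-67, was at 754 and 792 CPM with FOXO3 and 623 CPM with the empty vector (log2 fold change 0.28 ± 0.22 SE, adjusted p = 0.506), and Top2a, a topoisomerase of dividing cells, at 660 and 675 CPM against 663 CPM. Of the 29 genes for G1 cyclins and kinases, E2F and Rb proteins, Cdk6, a G1 kinase and known MLL-AF9 target, rose from 47.1 CPM to 80.3 and 83.8 CPM, and E2f4, a repressor E2F, fell from 163 CPM to 114 and 112 CPM. Neither passed with the pair summed (adjusted p = 0.196 and 0.297). Myc did not pass, at 310 and 318 CPM against 296 CPM, nor did the E2F partner gene Tfdp1, at 358 and 361 CPM against 365 CPM.

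The inhibitors of cyclin-dependent kinases moved in different directions. Cdkn2c, which encodes p18, stood at 122 and 124 CPM with FOXO3, at 6.00 CPM with the empty vector and at 1.52 to 5.99 CPM in the 4 others, so the FOXO3 pair stood above all 5 (log2 fold change 4.33 ± 0.58 SE, adjusted p = 0.0140, and 0.0627 with the pair summed). Cdkn2a, the locus of p16 and p19ARF, stood at 2.64 and 2.67 CPM against 44.3 CPM and 28.1 to 138 CPM in the others, below all 5 (log2 fold change -4.09 ± 0.86 SE, adjusted p = 0.0480, and 0.204 with the pair summed). Cdkn1b, which encodes p27, a well known FOXO target, was at 51.4 and 51.7 CPM against 38.8 CPM and did not pass (log2 fold change 0.38 ± 0.18 SE, adjusted p = 0.280). Cdkn2d gave 0.04 ± 0.32 SE. With Cdkn1a, 1 of the 8 tested inhibitors was higher and 2 were lower, and none passed with the pair summed. Of 33 genes of the p53 pathway, Sesn2 was higher and Phlda3, Cdkn1a and Perp, an apoptosis gene, were lower. None of them passed with the pair summed (summed adjusted p = 0.166, 0.0730, 0.243 and 0.172 in that order). Perp stood at 1.13 and 1.18 CPM against 80.8 CPM. Ccng1 (-0.42 ± 0.22 SE) and Trp53 itself (-0.27 ± 0.11 SE) did not pass. Among 23 genes of the BCL2 family edgeR called none, with 4 higher and 5 lower at an unadjusted p under 0.05 and 2 higher and 3 lower by DESeq2. Among 46 genes of DNA repair and damage checkpoints it called none either, with 2 higher and 1 lower at an unadjusted p under 0.05 and by DESeq2. Mcl1, a survival gene, was at 195 and 197 CPM against 209 CPM, and the mitophagy gene Bnip3l at 198 and 202 CPM against 177 CPM. Parp1 and H2ax, of DNA damage signalling, gave 0.02 ± 0.25 SE and -0.15 ± 0.11 SE.

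Antioxidant genes split as well, with 3 of 42 higher and 3 lower and a median of -0.13. Gpx3, a secreted glutathione peroxidase, stood at 191 and 189 CPM with FOXO3 and 22.2 CPM with the empty vector, where the others had 21.3 to 39.4 CPM (log2 fold change 3.06 ± 0.32 SE, adjusted p = 0.00701, and 0.0417 with the pair summed). Both FOXO3 libraries lay above all 5 others. Gsr, glutathione reductase, rose from 450 CPM to 1279 and 1276 CPM (adjusted p = 0.01, and 0.0786 with the pair summed). Nqo1 and Hmox1, a quinone reductase and haem oxygenase and targets of the oxidant sensor NRF2, each fell by 1.67 on the log2 scale (SE 0.17 and 0.21), and Glrx5, a glutaredoxin of mitochondria, by 0.70, without passing in the summed test (summed adjusted p = 0.0661, 0.0862 and 0.252). Gpx1 and Gstm1, a glutathione peroxidase and a glutathione transferase, gave 0.04 ± 0.18 SE and 1.01 ± 0.42 SE and did not pass. The third higher gene was Sesn2, a stress-induced regulator of growth, which is in the p53 list as well. Selenop, chosen after its values were seen, encodes a secreted selenium carrier, and rose from 42.4 CPM to 177 and 181 CPM (log2 fold change 2.05 ± 0.15 SE, adjusted p = 0.00311, and 0.0336 with the pair summed). Of the 7 NADPH oxidase genes edgeR called none, with 2 higher and 1 lower at an unadjusted p under 0.05 and by DESeq2, and Ncf1, a cytosolic subunit, was at 878 and 871 CPM against 540 CPM, and Rac2, its small GTPase, at 601 and 588 CPM against 684 CPM.

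A part of the genes that mature neutrophils and macrophages use was lower. Of 14 tested genes in the primary granule list Igfbp4 was lower (summed adjusted p = 0.194) and none was higher. Igfbp4 encodes an insulin-like growth factor binding protein and not a granule protein, so no granule protein gene of this list was called. The list had a median of 0.13 and 8 positive values. Its summed level was 22971 and 22868 CPM with FOXO3, 15909 CPM with the empty vector and 16879 to 32449 CPM in the 4 others. Igfbp4 stood at 270 and 269 CPM with FOXO3, 883 CPM with the empty vector and 121 to 532 CPM in the 4 others. The empty vector alone thus lay outside their range. By DESeq2, and at an unadjusted p under 0.05, 2 of the 14 were higher, with 2 and 3 lower. Mpo and Elane, the myeloperoxidase and neutrophil elastase genes, gave 0.26 ± 0.42 SE and 1.63 ± 0.48 SE on the log2 scale and did not pass (adjusted p = 0.770 and 0.104). Of 29 late neutrophil genes 10 were lower and none higher, 2 of them with the pair summed as well, with a median of -1.53. No member was higher at an unadjusted p under 0.05 or by DESeq2. Chil3, a chitinase-like protein of granulocytes and macrophages with a near-identical copy, stood at 82.0 and 82.4 CPM with FOXO3, 1521 CPM with the empty vector and 10606 to 27394 CPM in the 4 others (log2 fold change -4.24 ± 0.18 SE, adjusted p = 0.000805, and 0.0292 with the pair summed). For Chil3 the order was thus the FOXO3 pair lowest, then the empty vector, then the 4 other libraries. Padi4, which citrullinates histones in neutrophils, fell from 171 CPM to 23.5 and 23.2 CPM. Camp, the cathelicidin gene of secondary granules, fell from 563 CPM to 230 and 225 CPM. Neither passed in the summed test (adjusted p = 0.0514 and 0.123), and neither had the order of Chil3. The 4 other libraries held 28.5 to 120 CPM of Padi4, with the empty vector above and the FOXO3 pair below all of them. For Camp they held 140 to 744 CPM, and the FOXO3 pair and the empty vector both lay inside that range. S100a8 and S100a9, subunits of calprotectin, were at -1.23 ± 0.46 SE and -1.25 ± 0.46 SE and did not pass.

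Of 49 monocyte and macrophage genes 17 were lower and 1 was higher, 5 of the lower ones with the pair summed as well, and the median was -1.38. Cd36, Mmp12 and Mrc1 are given above. Itgax, the integrin CD11c, stood at 0.189 and 0.0891 CPM against 6.36 CPM and 43.5 to 498 CPM in the others (log2 fold change -5.56 ± 0.58 SE, adjusted p = 0.00680, and 0.0394 with the pair summed). Spp1, osteopontin, fell from 345 CPM to 13.8 and 13.5 CPM, which were below all other libraries (summed adjusted p = 0.0520). For all 17 lower genes the FOXO3 pair and the empty vector were both outside the range of the 4 other libraries. Tlr4, the receptor for bacterial lipopolysaccharide, was the member called higher, at 99.8 and 106 CPM against 42.3 CPM (summed adjusted p = 0.0844). The 4 other libraries held 82.3 to 150 CPM of Tlr4, so the empty vector alone lay outside their range. Ly6c2 and the protease gene Ctsd (-0.48 ± 0.31 SE) did not pass. The summed level of the list was 5195 and 5111 CPM with FOXO3 and 5279 CPM with the empty vector, against 26410 to 116782 CPM in the others. Of 16 genes for MHC class II and dendritic cells 2 were higher and 3 lower: H2-DMb1 and H2-DMb2, near-identical chaperones of peptide loading, rose by 2.13 ± 0.27 SE and 1.85 ± 0.28 SE on the log2 scale, while Cd74, the invariant chain, stood at 4 and 2 counts against 253, Zbtb46 at 0 in both FOXO3 libraries against 13, and Flt3 at 1 and 2 against 37. None of the 5 passed with the pair summed, with a summed adjusted p of 0.0597, 0.0909, 0.103, 0.114 and 0.167 in that order. H2-DMa and the dendritic cell chemokine receptor gene Xcr1 gave 0.64 ± 0.44 SE and 0.16 ± 0.20 SE.

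Some signalling genes of activated myeloid cells were lower too. Of 25 chemokine and cytokine genes 11 were lower and none higher, 4 of them in both tests, and the median was -2.59; 1 member was higher at an unadjusted p under 0.05 and none by DESeq2. Csf1, the macrophage growth factor, stood at 0.566 and 0.334 CPM against 15.5 CPM (log2 fold change -5.15 ± 0.32 SE, adjusted p = 0.00202, and 0.0237 with the pair summed). The 4 other libraries held 125 to 482 CPM of it. For all 11 lower members the FOXO3 pair and the empty vector were both outside the range of those libraries. Tnfsf9, the ligand 4-1BBL, was at 3 and 4 counts against 178, and Ccl7, a monocyte chemokine, at 1 and 4 counts against 313 (summed adjusted p = 0.0292 for both). Ccl9 fell from 406 CPM to 56.9 and 55.8 CPM (summed adjusted p = 0.0621). The chemokine gene Ccl6 (-2.08 ± 0.48 SE) and Tgfb1 (-0.41 ± 0.16 SE) did not pass. Of 29 immediate early genes 6 were lower and none higher, among them Fosl2, an AP-1 subunit, at 2.59 and 2.54 CPM against 18.4 CPM, Klf4, a regulator of monocyte fate, at 2 and 3 counts against 123, Fosl1, another AP-1 subunit, at 5 and 5 counts against 82, and Ier3 (summed adjusted p = 0.104 for Fosl1 and 0.0984 for Ier3). The gene Ier2 gave -0.35 ± 0.21 SE. For 5 of the 6 lower members the FOXO3 pair and the empty vector were both outside the range of the 4 other libraries. DESeq2 called 10 lower and none higher, and 1 member was higher at an unadjusted p under 0.05. Of 41 myeloid transcription factors 6 were lower and 1 was higher. Nab2, a corepressor of EGR proteins, and Rxra, the retinoid X receptor, fell by 3.49 ± 0.25 SE and 2.26 ± 0.20 SE on the log2 scale, and Irf5 by 2.40 ± 0.26 SE (summed adjusted p = 0.0559 for Irf5). Spi1 and Gfi1, the factors PU.1 and GFI1 of myeloid and granulocyte development, gave 0.36 ± 0.22 SE and 1.19 ± 0.27 SE and did not pass. Pparg, chosen after its values were seen, was the member called higher, at 37.3 and 37.0 CPM against 8.63 CPM (summed adjusted p = 0.0909).

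Interferon response genes were lower in 6 and higher in 1 of 33 tested members, with a median of -0.49. Lgals3bp, a secreted glycoprotein, fell from 50.5 CPM to 5.39 and 4.52 CPM (log2 fold change -3.38 ± 0.20 SE, adjusted p = 0.00195, and 0.0292 with the pair summed), and Usp18 and Zbp1, a deconjugase of ISG15 and a nucleic acid sensor, by 2.28 and 3.29 on the log2 scale (summed adjusted p = 0.0753 for both). Gbp2, a guanylate-binding protein, was at 4 and 2 counts against 97 (summed adjusted p = 0.0292). For all 6 lower members the FOXO3 pair and the empty vector were both outside the range of the 4 other libraries. Those libraries held 239 to 312 CPM of Lgals3bp. Ifitm3 (-0.43 ± 0.39 SE) and the proteasome subunit gene Psmb8 (-0.55 ± 0.23 SE) did not pass. Oas1a, an enzyme that senses double-stranded RNA and was chosen after its values were seen, was the member called higher, at 79.5 and 80.3 CPM against 27.9 CPM (summed adjusted p = 0.0987). Among 30 growth factor and cytokine receptors Il7r, Epor, Csf2rb, Flt3 and Ifngr2 were lower and Ifngr1 higher, so the chains of the interferon gamma receptor, chosen after their values were seen, had opposite signs. With the pair summed Il7r alone passed (summed adjusted p = 0.0690 for Epor, 0.167 for Flt3, 0.282 for Ifngr2 and 0.194 for Ifngr1). Csf2rb, the shared chain of the receptors for GM-CSF and interleukin 3, fell from 724 CPM to 292 and 301 CPM (adjusted p = 0.0281, and 0.194 with the pair summed), whereas Csf2ra, the chain specific to GM-CSF, was at 306 and 311 CPM against 141 CPM and did not pass (adjusted p = 0.105). Csf2rb2, a near-identical copy of Csf2rb, was at 160 and 160 CPM against 587 CPM without passing (adjusted p = 0.0773). Of 26 integrin and adhesion genes Emb and Itgb5 were higher and Itgax, Itgb7 and Itga1 lower, of which Itgax alone passed in the summed test (summed adjusted p = 0.0763, 0.0725, 0.182 and 0.0640 for Emb, Itgb5, Itgb7 and Itga1). Itgb2 and Itgam, the chains of the integrin Mac-1, gave 0.20 ± 0.36 SE and 0.15 ± 0.36 SE. Of 25 Toll-like and Fc receptors Tlr4 was higher and Ly96, Nlrp3, Tlr13 and Fcgr3 lower, and Ly96 alone passed in the summed test (summed adjusted p = 0.0680, 0.131 and 0.196 for Nlrp3, Tlr13 and Fcgr3). Fcgr2b and Fcer1g, which did not pass, gave 0.73 ± 0.18 SE and 0.15 ± 0.14 SE. Ly96 encodes the coreceptor of TLR4 and stood at 0.297 and 0.156 CPM against 2.19 CPM, opposite to Tlr4.

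Some markers of other blood lineages were lower with FOXO3. Of 15 erythroid markers 13 were lower and none higher, 3 of them with the pair summed as well; the median was -4.37 and all 15 fitted values were negative. No member was higher at an unadjusted p under 0.05 or by DESeq2. Ank1, a protein of the red cell skeleton, stood at 0.135 and 0.0891 CPM with FOXO3, 13 CPM with the empty vector and 0.0807 to 1.58 CPM in the 4 others. Klf1, the erythroid master regulator, stood at 0.701 and 0.490 CPM against 11.1 CPM and 0.599 to 1.43 CPM in the others, so for both genes the empty-vector library stood alone (summed adjusted p = 0.0297 and 0.0520). Car1, a carbonic anhydrase of red cells, was at 1 and 0 counts against 461 (summed adjusted p = 0.0307). The empty-vector library lay outside the range of the others with the FOXO3 pair inside for 7 of the 13. Tfrc, the transferrin receptor, took most of the list's counts and did not pass, at 457 and 462 CPM against 466 CPM, and Gata1 was at 1.75 and 1.78 CPM against 35.9 CPM without passing (adjusted p = 0.0883). The summed level was 466 and 469 CPM with FOXO3, 702 CPM with the empty vector and 131 to 341 CPM in the others. The globin genes Hbb-b1, Hbb-b2 and Hba-a2 had no count in the 3 compared libraries, and near-identical copies make their counts uncertain.

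Of 24 markers of mast cells, basophils and eosinophils 7 were lower and none higher, with a median of -2.63, and Epx passed with the pair summed too. At an unadjusted p under 0.05, and by DESeq2, 1 member was higher. Prg2, the major basic protein of eosinophils, stood at 1.81 and 1.34 CPM against 158 CPM, with 145 to 671 CPM in the others, and Prss34, a basophil protease, at 1.64 and 1.47 CPM against 335 CPM, with 90.8 to 872 CPM in the others. Neither passed in the summed test (summed adjusted p = 0.0533 and 0.0909), nor did Prg3, a second eosinophil granule gene, at 3 and 2 counts against 878 (summed adjusted p = 0.0875). Here the order was the reverse of the erythroid case, since the FOXO3 pair was the exception and the empty vector lay inside the range of the other libraries for 4 of the 7. The transcription factor gene Gata2, at 20.1 and 20.1 CPM against 367 CPM, and the mast cell protease gene Cpa3, at 188 and 190 CPM against 1192 CPM, did not pass (adjusted p = 0.0851 and 0.340). The summed level of the list was 636 and 641 CPM with FOXO3, 3521 CPM with the empty vector and 1826 to 14211 CPM in the others. Among megakaryocyte and platelet markers 1 of 16, Thbs1, was higher and none lower. DESeq2 called 3 lower, and 4 were lower at an unadjusted p under 0.05. Nfe2, a factor of platelet release, and F2r, a thrombin receptor, gave -0.22 ± 0.31 SE and -2.99 ± 1.22 SE and did not pass. Of the few lymphoid markers that met the count minimum, Cd79b among 4 B cell markers and Tcf7 among 7 T and NK cell markers were lower (summed adjusted p = 0.107 and 0.0690). Nkg7 (-1.17 ± 0.46 SE), Cd22 (-0.23 ± 0.73 SE) and Igll1 (0.50 ± 1.22 SE) did not pass, and Gzmb, a granzyme also made by mast cells and basophils, was at 54.2 and 52.9 CPM against 935 CPM without passing (adjusted p = 0.0924). Of 8 stromal and endothelial markers Pdgfrb, Pecam1 and Col1a1 were lower, none in the summed test (summed adjusted p = 0.0874, 0.0871 and 0.236), and Lepr and Acta2 gave 0.05 ± 0.23 SE and -0.15 ± 0.16 SE. Summed levels were 2.78 and 2.90 CPM against 12.4 CPM for 13 B cell markers, 95.9 and 93.7 CPM against 1019 CPM for 20 T and NK cell markers, and 62.7 and 63.8 CPM against 208 CPM for 16 stromal markers. In the 3 compared libraries Pax5, Ebf1, Ms4a1 and Blk of B cells, Cd3e, Cd3g, Cd4 and Klrd1 of T and NK cells, and Cdh5, Dcn, Lum and Cxcl12 of stroma and endothelium were at 0 counts. The part of a different mix of lineages in the falls described above was not tested.

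**Figure D3:**
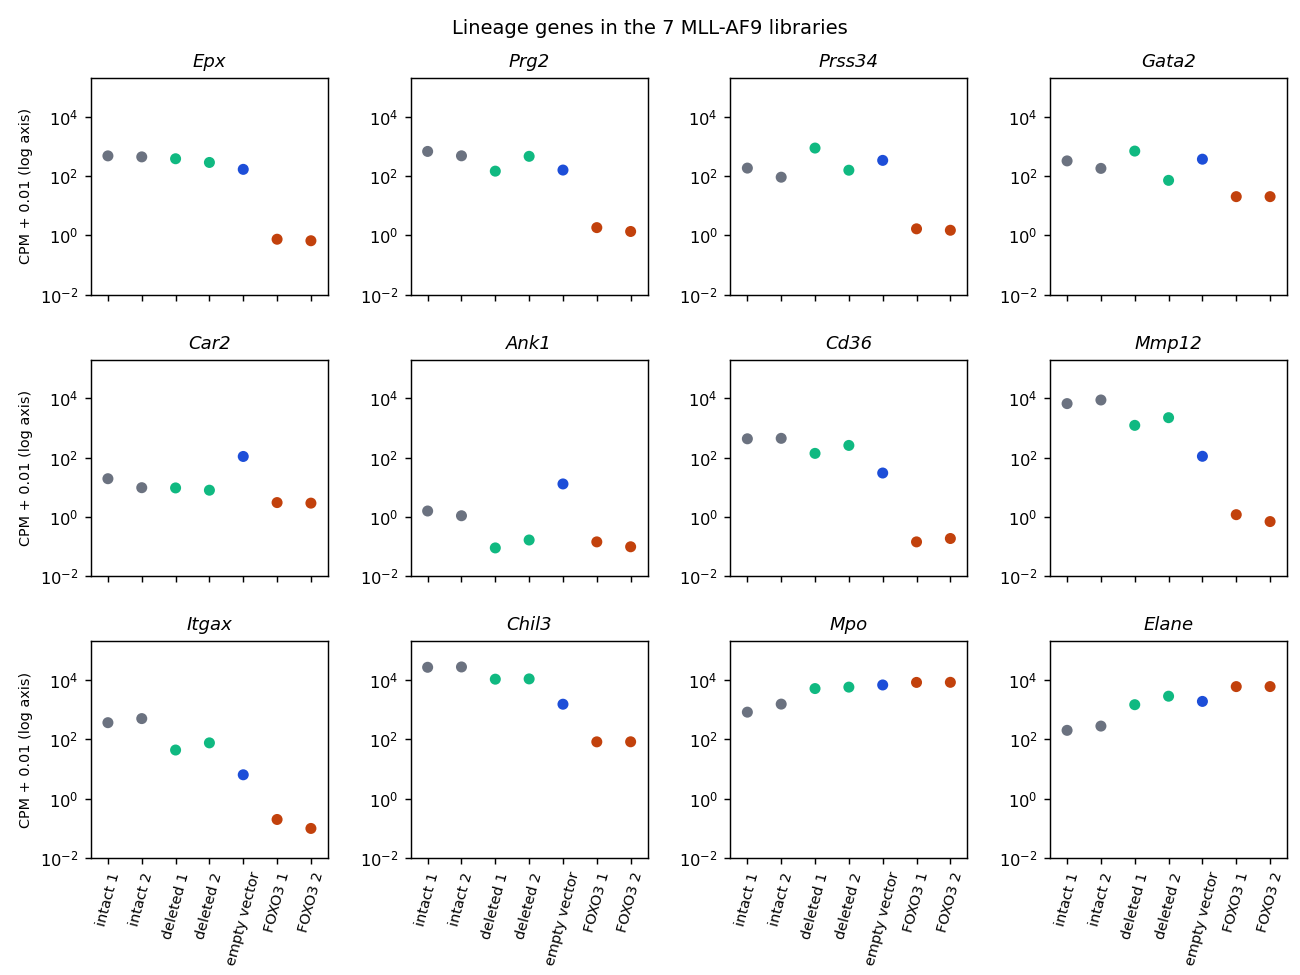
CPM plus 0.01, on a log axis, of 12 lineage genes, chosen after their values were seen, in each of the 7 MLL-AF9 libraries. Epx, Prg2 and Prss34 are low in the FOXO3 pair alone, and Car2 and Ank1 are high in the empty-vector library alone. Mmp12, Itgax and Chil3 step down from the other MLL-AF9 libraries to the empty vector and again to the FOXO3 pair.

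Genes tied to MLL-AF9 and to stem cells went different ways. Of 33 genes of the Hoxa cluster and MLL-AF9 targets 7 were higher and 5 lower, with a median of 0.55; 1 of these, the lower gene Eya1, passed with the pair summed. The higher ones were Cdk6, Ptprc and, chosen after their values were seen, Pbx3, Runx2, Tcf4, Jmjd1c and Lmo2. In the summed test none of these 7 passed (summed adjusted p from 0.0968 for Ptprc to 0.240 for Lmo2). Pbx3, a cofactor of HOXA9, stood at 24.9 and 28.2 CPM against 6.68 CPM (log2 fold change 1.95 ± 0.34 SE, adjusted p = 0.0279, and 0.122 with the pair summed). Hoxa9 itself was at 149 and 147 CPM against 94.9 CPM and missed the threshold (log2 fold change 0.61 ± 0.14 SE, adjusted p = 0.0563), and its partner gene Meis1 gave 0.36 ± 0.73 SE. Eya1, a phosphatase and transcriptional cofactor, was at 2 counts in either FOXO3 library against 14.5 CPM, and Sox4 and Mef2c, transcription factors of progenitors, fell by 2.80 ± 0.26 SE and 1.28 ± 0.15 SE on the log2 scale. The other two lower members were Satb1 and Id2, and of the 5 Eya1 alone passed in the summed test (summed adjusted p = 0.0506, 0.109, 0.164 and 0.0710 for Sox4, Mef2c, Satb1 and Id2). Myb did not pass, at 478 and 488 CPM against 470 CPM.

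Of 27 stem and progenitor genes 9 were lower and none higher, 2 of them with the pair summed as well, with a median of -1.40. DESeq2 called 14 lower and none higher, and 1 member was higher at an unadjusted p under 0.05. Tal1, a regulator of blood stem cells and of the erythroid and mast cell lineages, stood at 6.69 and 6.95 CPM against 85.1 CPM, with 57.5 to 104 CPM in the others (log2 fold change -3.67 ± 0.34 SE, adjusted p = 0.00572, and 0.0455 with the pair summed). Cd34 and Adgrg1, surface proteins of progenitors chosen after their values were seen, fell by 3.47 ± 0.74 SE and 5.35 ± 0.88 SE on the log2 scale (summed adjusted p = 0.209 and 0.132). Muc13, a mucin of progenitors, fell from 370 CPM to 170 and 155 CPM (summed adjusted p = 0.0956). The 4 other libraries held 97.6 to 120 CPM of Muc13, so the FOXO3 pair lay above them and the empty vector higher still. Kit, the stem cell factor receptor, gave 0.68 ± 0.33 SE and did not pass. Lyl1, a relative of Tal1, was at 253 and 247 CPM against 172 CPM without passing, and Ifitm1 gave -0.31 ± 0.39 SE. Of 37 genes for COMPASS and other histone modifiers Rbbp5, a core subunit shared by MLL complexes, and Asxl2 were higher and Dnmt3b lower, all without passing in the summed test (summed adjusted p = 0.171, 0.235 and 0.108). Dnmt1 and Suz12 gave 0.31 ± 0.22 SE and 0.35 ± 0.24 SE.

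Metabolic and stress lists held few edgeR calls and more by DESeq2. Of 34 genes of the amino acid stress response 3 were higher and none lower, 30 fitted values were positive and the median was 0.64. At an unadjusted p under 0.05, 18 members were higher and 1 lower, and DESeq2 called 12 higher and none lower. Atf5, a stress transcription factor, rose from 39 CPM to 92.5 and 90.0 CPM, Slc7a1, an importer of cationic amino acids, from 178 CPM to 277 and 291 CPM, and the third was Sesn2. None passed with the pair summed (adjusted p = 0.0952, 0.235 and 0.166). Atf4, whose protein drives this response, was at 684 and 685 CPM against 539 CPM and did not pass, nor did Psat1, of serine synthesis (0.48 ± 0.18 SE). Of 43 oxidative phosphorylation genes edgeR called none, with 7 lower and none higher at an unadjusted p under 0.05 and 2 lower by DESeq2, and the median was -0.14. The ATP synthase genes Atp5b and Atp5a1 gave -0.20 ± 0.18 SE and -0.47 ± 0.17 SE. Of 37 ribosome biogenesis genes Nop16 was lower (summed adjusted p = 0.339) and none higher, with a median of -0.25 and 3 positive values; 12 were lower and none higher at an unadjusted p under 0.05, and 4 and none by DESeq2. The nucleolar genes Ncl and Npm1 gave -0.45 ± 0.20 SE and -0.53 ± 0.19 SE. Of 17 heat shock genes Hspe1 and Hsph1 were lower (summed adjusted p = 0.241 and 0.293) and none higher, with 8 lower and none higher at an unadjusted p under 0.05 and 5 and none by DESeq2, and the chaperone genes Hspa8 and Hsp90ab1 gave -0.42 ± 0.20 SE and -0.23 ± 0.15 SE. Of 27 glycolysis genes Pfkl was lower (summed adjusted p = 0.221) and none higher, with 4 higher and 6 lower at an unadjusted p under 0.05 and 1 and 3 by DESeq2. Gapdh and Pkm gave 0.11 ± 0.23 SE and -0.28 ± 0.17 SE. Of 36 sterol and fatty acid genes 3 were lower, led by Fads2, a fatty acid desaturase, at 2.21 and 2.01 CPM against 45.7 CPM, followed by the cholesterol exporters Abcg1 and Abca1 (summed adjusted p = 0.0654 for Abca1). For Fads2 the 4 other libraries held 2.32 to 17.1 CPM, with the empty vector above and the FOXO3 pair below all of them. Scd2 and Fasn, of fatty acid synthesis, gave -0.18 ± 0.30 SE and -0.08 ± 0.12 SE. At an unadjusted p under 0.05, 4 of the 36 were higher and 6 lower, and by DESeq2 3 and 5. Of 47 autophagy and lysosome genes Atp6v0d2, a proton pump subunit of macrophages and osteoclasts, was lower, at 0.216 and 0.379 CPM against 18 CPM, and Lamp1, a membrane protein of lysosomes, gave 0.42 ± 0.31 SE. Of the 47, 4 were higher and 7 lower at an unadjusted p under 0.05, and 4 and 2 by DESeq2.

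**Figure D4:**
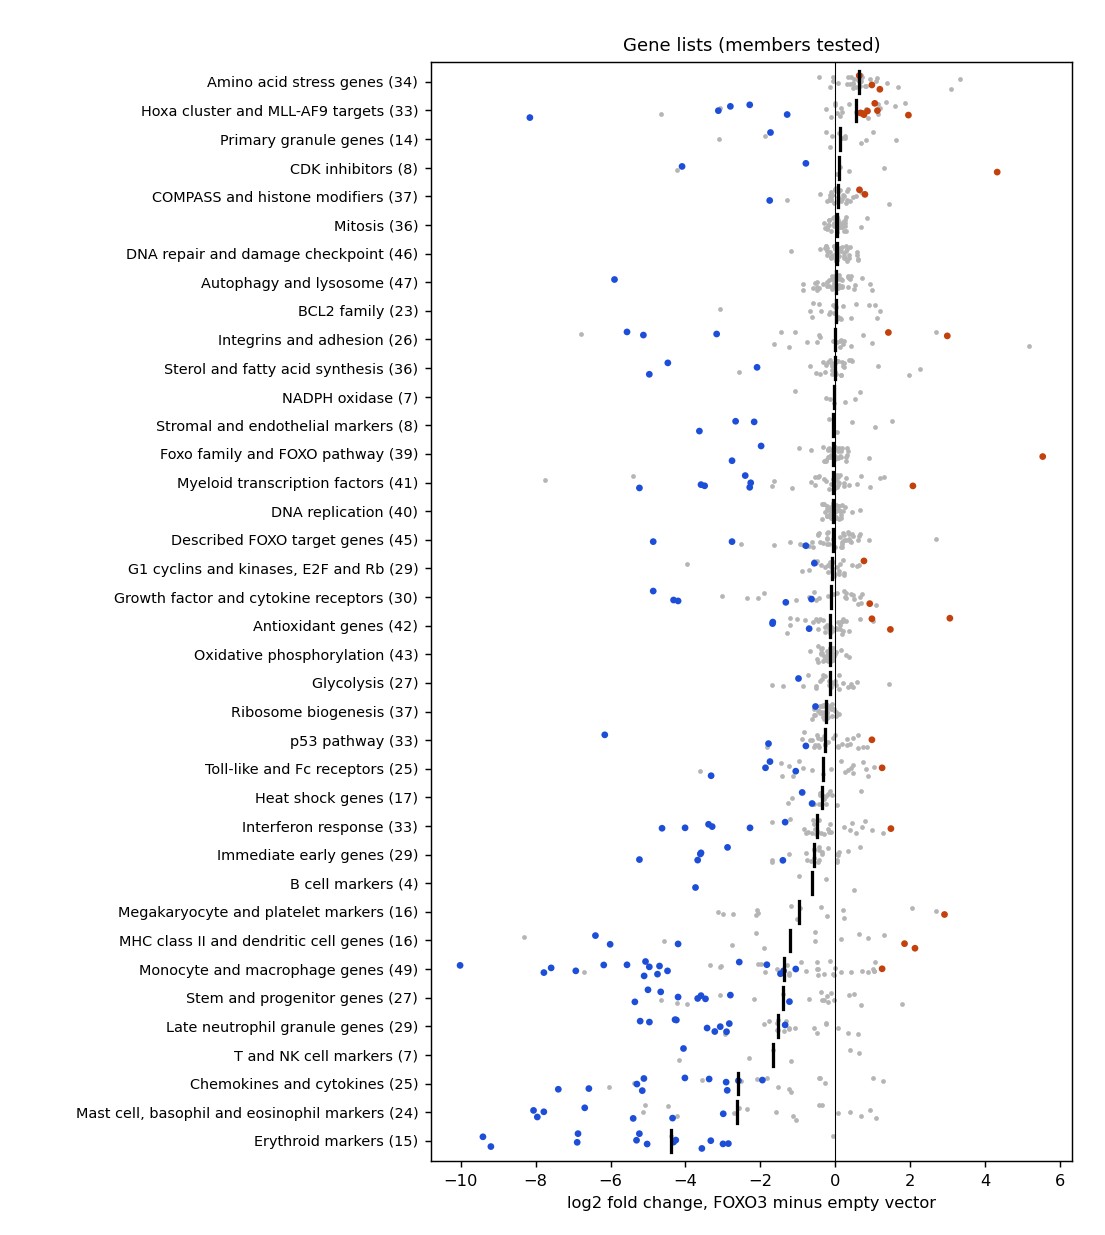
Log2 fold changes, FOXO3 minus empty vector, of the tested members of the 38 gene lists, sorted by median (black bar), with the number tested in brackets. Red and blue points passed with the pair as 2 libraries, higher and lower; grey points did not, and the vertical spread within a row is only for display. Erythroid, mast cell and chemokine lists lie far to the left, while cell division lists sit around 0.

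The fold changes also ran together along 2 stretches of chromosome, a pattern noticed after the values were seen. Genes at 5 CPM or more on average, 9978 in all, were put in 325 runs of at least 30 neighbours in the gene order of GRCm38.p6. In 11 runs the median log2 fold change was at least 0.4 in size, whereas the other runs lay between -0.35 and 0.25. Of these, 10 were consecutive and made up the end of chromosome 1, from Macir to Cr1l, 300 genes with a median of 0.56, or 1.47-fold, of which 258 were positive. They held 63 of the 278 higher and 9 of the 357 lower calls in the runs, against 4 and 10 among the 270 genes on the rest of chromosome 1, whose median was 0.01. The other run was on chromosome 14, from Dnajc15 to Pcca, 45 genes with a median of -0.65, none called higher by edgeR and 12 lower. Against the mean of the 4 other MLL-AF9 libraries, the chromosome 1 genes stood at a median log2 ratio of 0.60 and 0.61 in the FOXO3 libraries and -0.00 in the empty-vector library, and the chromosome 14 genes at -0.35 and -0.30 in the FOXO3 libraries and 0.20 in the empty-vector library. The same median over all these genes was 0.11, 0.11 and 0.09. Of the genes named above, Rbbp5, Ptprc, F5, Mcm6, Parp1, Fcgr2b, Fcer1g, Fcgr3, Cd34 and Cd48 lie in the chromosome 1 stretch. The lower and upper quartiles of the stretch were 0.25 and 0.80. Rbbp5, at 0.79 ± 0.13 SE, lay between them, Ptprc, at 1.13 ± 0.13 SE, and F5 lay above both, and Cd48, Cd34 and Fcgr3 went down. Without these 345 genes 295 genes were higher and 719 lower. The count tables hold RNA only, and a difference in gene dosage was not tested.

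**Figure D5:**
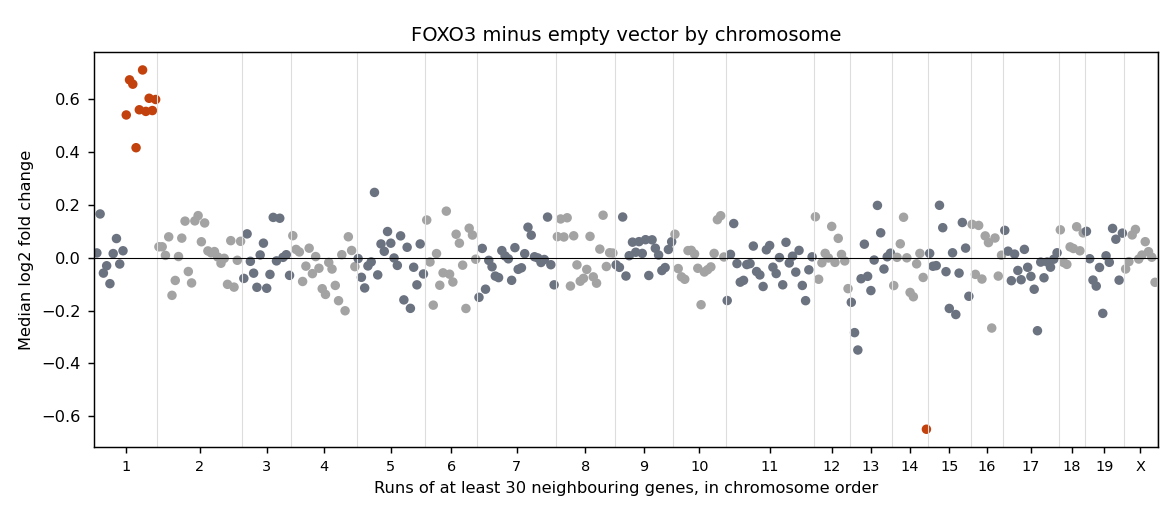
Median log2 fold change, FOXO3 minus empty vector, of each of 325 runs of neighbouring genes, in gene order along each chromosome. Red marks the 11 runs past 0.4 in size: 10 consecutive runs at the end of chromosome 1, above 0, and 1 run on chromosome 14, below 0.

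FOXO factors bind a forkhead consensus, and promoters of the called genes were searched for it. The letters searched were GTAAACA and its reverse complement TGTTTAC, on both strands, in the 250 bases before and 50 bases after each start given by RefSeq for GRCm38.p6. A promoter was found for 11057 tested genes, and 3.16% of them held the motif. The share was 2.82% for the 284 higher genes with a promoter, 8 of them, and 2.80% for the 607 lower genes, 17 of them, so neither share stood above that of all genes. GATAAG, the core site of GATA factors (reverse complement CTTATC), was found for 6.51% of all genes, 6.69% of the higher and 8.24% of the lower ones, and GAGGAAGT, a core site of PU.1 (reverse complement ACTTCCTC), for 3.95%, 5.28% and 5.93%. The 8 higher genes with the forkhead letters were Klf9, Pim1, Selenop, Ndrg2, Ralgapa1, Nos1ap, Peli2 and Dennd2a, of which Selenop and Dennd2a passed with the pair summed as well. Nos1ap lies in the chromosome 1 stretch described above. Klf9, Pim1 and Peli2, chosen like the others for the motif, rose by 1.36 ± 0.22 SE, 1.43 ± 0.13 SE and 1.57 ± 0.22 SE on the log2 scale.

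Promoters of some called genes are shown to place the letters, in capitals, beside the direction of the change in RNA. Selenop (chr15:3270727-3271026, + strand) and Dennd2a (chr6:39557785-39558084, - strand) are the 2 higher genes with the letters that passed both tests. Bahcc1 (chr11:120232697-120232996, + strand) and Adam8 (chr7:139992513-139992812, - strand) are examples from the 5 lower ones that did. All are from RefSeq, GRCm38.p6, and read 5′ to 3′ toward the gene.
Selenop: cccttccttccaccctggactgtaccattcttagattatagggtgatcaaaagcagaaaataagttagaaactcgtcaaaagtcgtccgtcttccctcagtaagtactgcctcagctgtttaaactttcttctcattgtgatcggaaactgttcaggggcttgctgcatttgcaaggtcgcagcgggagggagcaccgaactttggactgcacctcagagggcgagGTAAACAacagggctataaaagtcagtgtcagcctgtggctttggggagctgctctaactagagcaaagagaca
Dennd2a: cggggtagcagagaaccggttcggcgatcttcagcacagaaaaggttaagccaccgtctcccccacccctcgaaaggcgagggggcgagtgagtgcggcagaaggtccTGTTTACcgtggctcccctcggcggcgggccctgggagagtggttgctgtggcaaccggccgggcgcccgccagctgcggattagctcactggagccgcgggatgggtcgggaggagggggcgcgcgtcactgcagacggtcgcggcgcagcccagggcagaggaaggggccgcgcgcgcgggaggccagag
Bahcc1: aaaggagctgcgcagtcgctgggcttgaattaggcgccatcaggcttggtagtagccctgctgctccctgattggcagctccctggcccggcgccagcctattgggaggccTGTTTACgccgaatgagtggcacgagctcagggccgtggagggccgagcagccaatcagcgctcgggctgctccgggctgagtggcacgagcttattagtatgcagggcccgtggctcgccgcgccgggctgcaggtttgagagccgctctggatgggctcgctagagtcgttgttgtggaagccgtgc
Adam8: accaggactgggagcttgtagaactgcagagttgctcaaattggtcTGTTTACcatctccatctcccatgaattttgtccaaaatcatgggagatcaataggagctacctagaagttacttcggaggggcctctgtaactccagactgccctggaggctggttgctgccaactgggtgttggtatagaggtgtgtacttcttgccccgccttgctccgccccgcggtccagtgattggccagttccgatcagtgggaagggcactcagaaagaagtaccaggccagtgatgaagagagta
The letters begin at -24 from the start in Selenop, -142 in Dennd2a, -139 in Bahcc1 and -204 in Adam8. Dennd2a, which encodes an activator of Rab proteins, was at 5.96 and 5.44 CPM with FOXO3 against 0.666 CPM (log2 fold change 3.06 ± 0.33 SE, adjusted p = 0.00768, and 0.0465 with the pair summed). Bahcc1, which encodes a chromatin reader, was at 1.13 and 1.07 CPM against 63.9 CPM (-5.89 ± 0.18 SE, adjusted p = 0.000805). A match is a description of the sequence and says nothing of binding, and genes with the same letters went in opposite directions. Among the 15 largest rises, 8 had a promoter in the table and none held the forkhead letters, and among the 15 largest falls Bahcc1 was the only holder of 10.

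Since the cells of both groups are labelled MLL4-/-, the calls were set beside those of Mll4 loss, the pair labelled Mll4 deleted minus the intact pair, in the same fit. The contrasts share no library but share 1 estimate of spread. Mll4 loss called 2225 of the tested genes (15.9%), 1188 higher (8.49%) and 1037 lower (7.41%). Both contrasts called 303 genes, which is 26.7% of the FOXO3 calls and 13.6% of the Mll4-loss calls. Opposite directions were seen for 61 genes higher with FOXO3 and lower with Mll4 loss and for 64 lower with FOXO3 and higher with Mll4 loss. The 61 were 16.8% of the genes higher with FOXO3, beside 7.41% of all tested genes. The 64 were 8.30% of the genes lower with FOXO3, beside 8.49% of all. In the same direction went 29 higher and 149 lower genes. The 29 were 7.97% of the genes higher with FOXO3, beside 8.49% of all. Lower genes with both made up 19.3% of the genes lower with FOXO3, beside 7.41% of all, and 14.4% of those lower with Mll4 loss. The differences between these shares were not tested. Foxo3 itself did not pass for Mll4 loss (log2 fold change -0.48 ± 0.13 SE, adjusted p = 0.0639).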

How the data were processed

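RNA was prepared with a TruSeq kit and sequenced, per the labels' protocols. The files as deposited by the authors hold whole-number read counts per gene, with a file for each library. TopHat2 2.0.11, Bowtie 0.12.8 and genome build mm9 are named in the submitters' processing notes. How genes were counted, with which annotation and whether by strand is not given in the sources used here. Overlapping genes and near-identical copies may therefore share reads. Gene numbers were named from RefSeq for GRCm38.p6, used for names, gene order and promoters; 97 numbers stayed unnamed, took 1.01% of the empty-vector counts and were kept.

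Genes with at least 10 counts in 1 of the 3 compared libraries were tested in edgeR 4.0.16 (R 4.3.3) with TMM scaling, 1 coefficient for each of 4 groups over 7 MLL-AF9 libraries, Benjamini-Hochberg adjustment and a threshold of 0.05. CPM uses the library total alone, so ratios of CPM differ slightly from fold changes. The test was run again with the FOXO3 pair summed. It was also run on simulated counts with 200 genes changed in the FOXO3 group and the other groups alike. That setting lacks the real differences between groups and any peculiarity of the single control library, so no result here rests on it. The text names Foxo3 and Kmt2d, the 15 highest and 15 lowest fold changes passing both tests at 10 CPM or more on average, and for each of 38 lists up to 4 called members with the smallest p, up to 2 abundant members that did not pass, and all called members where 5 or fewer passed. A gene among the largest falls is not reported here. The members and lists were chosen with earlier results of these data known. Alternatives were other scaling, filters, DESeq2 1.42.0, robust estimation, a 2-fold null, fewer libraries and, chosen after seeing the data, leaving out 2 stretches of chromosome.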

Additional observations from a re-analysis of the deposited data

How the results depend on the processing

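The number of genes called depended most on how the spread was estimated. It was 1135 as reported and between 1014 and 1211 with RLE scaling, library totals alone, no gene filter, edgeR's default filter, robust estimation or without the 2 stretches of chromosome, an alternative chosen after seeing the data. It was 569 with a mean of at least 5 CPM, where fewer genes were tested, 2215 with DESeq2, 471 against a 2-fold null, 197 with the FOXO3 pair summed and 9778 with only the 3 compared libraries, where the near-alike FOXO3 pair alone sets the spread. Leaving out 1 library gave 141 to 2342: 170 and 141 without FOXO3 library 1 or 2, where the FOXO3 group has 1 library and is assumed to vary like the others, 2342 and 2277 without a library labelled Mll4 deleted, and 864 and 856 without an intact one. The 303 genes shared with Mll4 loss became 809 with DESeq2, 19 with the pair summed, 5 against the 2-fold null and 0 to 828 with 1 library left out (0 without FOXO3 library 1); the cause was not tested. Of the 111 named genes called, 61 lost the call with the pair summed, 63 and 69 without FOXO3 library 1 or 2, 37 against the 2-fold null and at most 20 in any other setting, and no called gene changed sign. No paired analysis was possible because the single empty-vector library has no replicate number and the groups share fewer than 2 numbers. With 1 control library, a difference cannot be told apart from a peculiarity of that library, and genes under about 10 counts in all 3 libraries were not tested.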
